A study of Mus musculus with 6 samples.

Results

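The YAP and TEAD pathway was examined in cultured mouse keratinocytes through 10 genes chosen by name: Ccn1 and Ccn2 (formerly Cyr61 and Ctgf), Ankrd1, Amotl1, Amotl2, Ajuba, Lats2, Yap1, Wwtr1 and Tead1. A probe set counted where the platform annotation gave it a single gene symbol and that symbol was a member. All 10 genes were found, with 25 probe sets, among 18193 genes that had a probe set of their own. A further probe set annotated to Lats2 and to another gene was left out. RNA came from keratinocytes, which form the epidermis, taken from newborn C57BL6/FVB mice and grown in primary culture. In the knockout group (genotype Gpx4 KO) the gene for glutathione peroxidase 4, an enzyme that reduces lipid peroxides, was deleted by a cre recombinase under the K14-cre promoter, which is active in basal keratinocytes. The labels call the other group control and do not say whether these animals carried cre or floxed alleles. Knockout and control littermates of litters A, B and C gave 1 pool of cells and 1 array per genotype and litter, so each group had 3 arrays, and all cultures had 100 nM sodium selenite in the medium.

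In the Hippo pathway the LATS kinases phosphorylate YAP (Yap1) and its paralog TAZ (Wwtr1), which keeps both coactivators out of the nucleus. Unphosphorylated YAP and TAZ bind TEAD transcription factors and switch on genes such as Ccn1, Ccn2 and Ankrd1. Some targets, Lats2 and Amotl2 among them, encode inhibitors of YAP and so act in feedback. In skin, YAP is known for driving the proliferation of basal keratinocytes and for answering to cell density, spreading and stretch.

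TEAD factors recognise the letters GGAATG, read on either strand. The 250 bases before the start site of each member were taken from RefSeq promoters of build GRCm38.p6, which held 8 of the 10 genes (not Ccn2 or Tead1). GGAATG or its reverse complement was present in 6 of the 8: Ccn1, Ankrd1, Amotl2, Ajuba, Yap1 and Wwtr1. A gene counted if any of its windows held a match, and the 8 genes had 10 windows. Counted per window instead, a match was present in 12.6% of all 32851 promoter windows of this length. The AP-1 motif TGANTCA and the CArG box of serum response factor were present in 0 of the 8, against 6.75% and 1.47% of all windows; overlapping matches were counted separately. The windows below are those of the targets and feedback genes named above that have one, and Lats2 has 2, from separate start sites; they are shown with the GGAATG matches in capitals, 5′ to 3′ along the strand of the gene. They lie at chr3:145649986-145650235 (Ccn1, minus strand), chr19:36119845-36120094 (Ankrd1, minus strand), chr9:102717554-102717803 (Amotl2, plus strand), chr14:57746124-57746373 (Lats2, upstream start, minus strand) and chr14:57734419-57734668 (Lats2, downstream start, minus strand).
Ccn1: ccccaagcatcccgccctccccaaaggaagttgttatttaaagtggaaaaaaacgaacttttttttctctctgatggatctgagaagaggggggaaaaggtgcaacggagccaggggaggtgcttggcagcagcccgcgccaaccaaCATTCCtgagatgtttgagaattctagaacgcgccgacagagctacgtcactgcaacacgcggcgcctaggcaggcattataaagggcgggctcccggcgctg
Ankrd1: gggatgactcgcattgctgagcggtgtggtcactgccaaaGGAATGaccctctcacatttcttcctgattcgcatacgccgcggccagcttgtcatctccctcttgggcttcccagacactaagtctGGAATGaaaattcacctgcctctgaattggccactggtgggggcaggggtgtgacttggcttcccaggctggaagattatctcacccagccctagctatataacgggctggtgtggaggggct
Amotl2: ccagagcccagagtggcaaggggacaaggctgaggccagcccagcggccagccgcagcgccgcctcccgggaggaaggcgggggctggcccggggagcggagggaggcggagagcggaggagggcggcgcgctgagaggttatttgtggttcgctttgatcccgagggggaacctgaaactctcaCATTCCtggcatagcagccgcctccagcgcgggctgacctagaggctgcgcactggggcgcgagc
Lats2 upstream start: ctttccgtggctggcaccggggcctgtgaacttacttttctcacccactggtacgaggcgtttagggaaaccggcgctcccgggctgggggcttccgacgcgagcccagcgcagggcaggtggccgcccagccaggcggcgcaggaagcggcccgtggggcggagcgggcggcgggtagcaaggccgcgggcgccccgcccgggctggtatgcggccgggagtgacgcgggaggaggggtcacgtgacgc
Lats2 downstream start: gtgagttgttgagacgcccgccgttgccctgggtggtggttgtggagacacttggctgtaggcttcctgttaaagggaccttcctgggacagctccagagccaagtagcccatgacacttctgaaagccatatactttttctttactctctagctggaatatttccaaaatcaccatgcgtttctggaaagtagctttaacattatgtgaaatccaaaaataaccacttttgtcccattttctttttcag
The match lay 103 to 98 bases before the start site in Ccn1 and 65 to 60 bases before it in Amotl2. Ankrd1 had matches from 210 to 205 and from 123 to 118 bases before the start, and neither Lats2 window held one. These matches are a description of the letters in the windows and not of binding.

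The arrays held 45037 probe sets other than controls. The number of arrays, 3 per group, limits the precision of every value. Before normalization the trimmed mean intensity was 72.8 to 92.0 on 5 arrays and 114.3 on the control of litter C. Levels below are quantile-normalized intensities, and changes are knockout minus control on log2(intensity + 16) from limma with litter as a block, a scale that understates changes of dim genes. The threshold was a Benjamini-Hochberg adjusted p of 0.05 over all probe sets. Where 3 values of a group follow each other, they are those of litters A, B and C in that order. Gpx4 checked the labels: the brighter of its probe sets read 497, 551 and 536 in controls and 212, 260 and 216 in knockouts (log2 change -1.15 ± 0.09 SE, adjusted p = 0.0206). The dimmer was at -1.40 ± 0.21 and did not pass (adjusted p = 0.063), though its groups did not overlap. Gpx4 also did not pass as deposited (adjusted p = 0.122), without an intensity trend (0.1) or with the mean of its probe sets (0.0687). Leaving out litter A gave an adjusted p of 0.162, and leaving out litter B gave 0.278. Keratinocyte genes Krt5 and Krt14 were at 6278 to 7049 on every array, and endothelial markers at 19.0 or below. Of the 9 keratinocyte genes measured limma called 0, with 0 higher and 3 lower at an unadjusted p under 0.05. Over all genes 8.66% were higher and 9.45% lower at that p. The basal keratin Krt15 read 267.5, 239 and 5.58 in controls and 11.0, 1.83 and 2.20 in knockouts (log2 change -2.49 ± 0.65, adjusted p = 0.164), so the control of litter C was as low as the knockouts. Trp63, the transcription factor of basal cells, was at -0.43 ± 0.08 (adjusted p = 0.0816) with groups that did not overlap. The hemidesmosome collagen Col17a1 was at -0.36 ± 0.11 (adjusted p = 0.213) with groups that overlapped. Of the 9 changes, 3 were positive and 6 negative. Itga6 was at 0.09 (adjusted p = 0.814) and Itgb4 at -0.07 (0.805), both with overlapping groups. Cdh1 was at 0.16 (adjusted p = 0.383), with every knockout array above every control array. The part of these genes in the results on the YAP pathway was not tested. The Y-linked Eif2s3y read 156 to 185 in controls and 0.667 to 4.62 in knockouts, and Xist 389 to 536 against 1214 to 1260. The sex of the pooled animals therefore cannot be told apart from genotype in any comparison below.

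Ccn1 rose in the knockout, and Ccn2, its close relative among matricellular proteins, did not pass the test. Of the 10 genes, by the brightest probe set, 1 rose and 0 fell; over all genes 0.214% rose and 0.401% fell. At an unadjusted limma p under 0.05, 5 of 10 were higher and 0 lower, against 8.66% and 9.45% of all genes. The 5 were Ccn1, Amotl1, Amotl2, Lats2 and Tead1, and in the same 5 every knockout array lay above every control array, as in 9.81% of all genes. The median log2 change of the 10 was 0.23, with 0.39, 0.36 and 0.10 by litter, beside a median of 0.00 over all genes. Per probe set, 2 of the 25 passed, both of Ccn1 and both higher, against 0.158% higher and 0.262% lower over all probe sets. Every knockout array lay above every control array in 9 of the 25 and below in 1, against 8.79% and 9.43%.

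**Figure D1:**
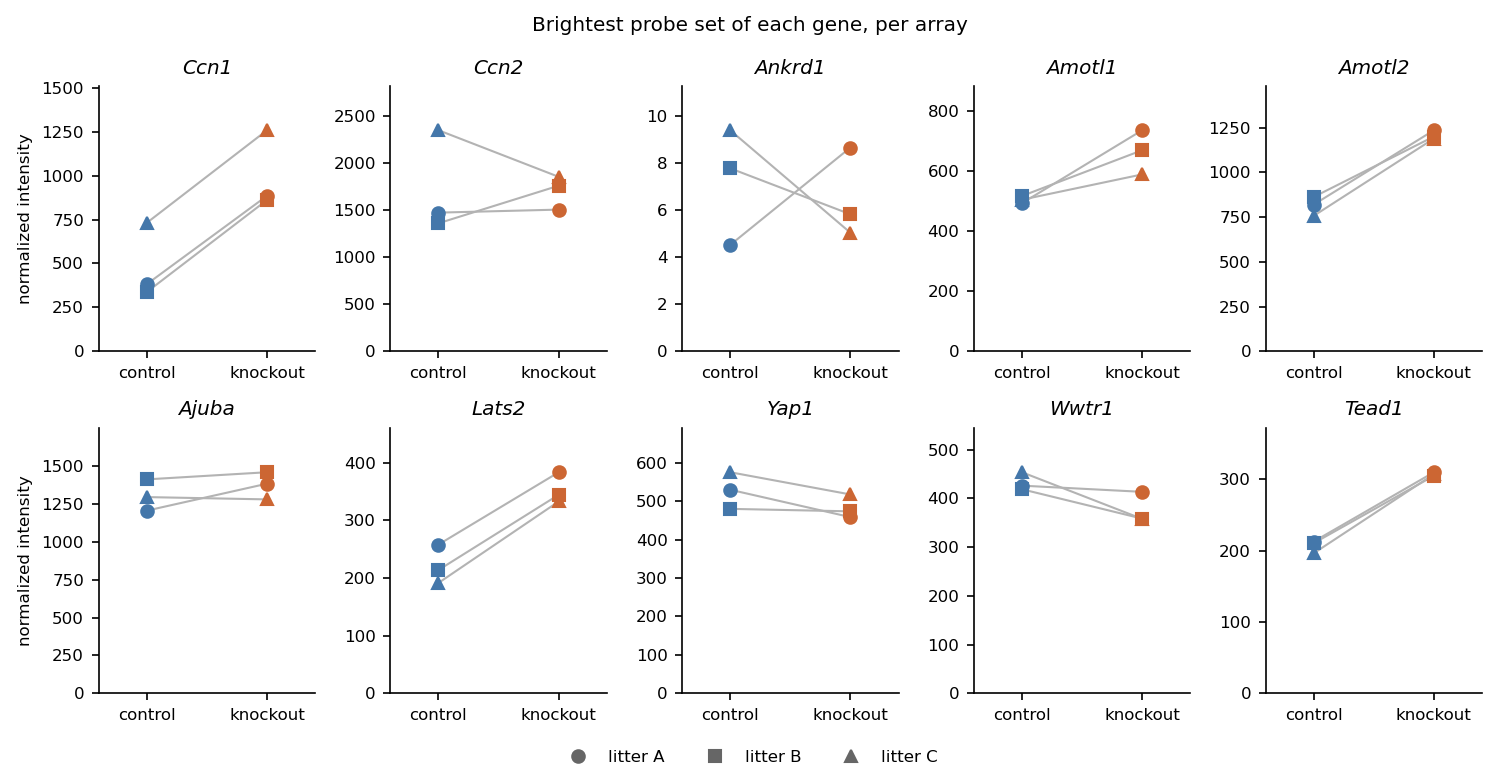
Quantile-normalized intensity (linear axis from 0) of the brightest probe set of each of the 10 genes on the 6 arrays, with control arrays in blue, knockout arrays in orange, marker shape for the litter and a line joining arrays of the same litter. Ccn1, Amotl1, Amotl2, Lats2 and Tead1 have all 3 knockout points above all 3 control points, and all Ankrd1 points are under 10.

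Ccn1 encodes a secreted matricellular protein that binds integrins and is among the best known YAP targets. Its brightest probe set, 1416039_x_at, read 382, 338 and 731 in controls and 885, 861 and 1258 in knockouts. The groups did not overlap, and litter C was the highest litter in both. The log2 change was 1.09 ± 0.12 SE (2.12-fold, adjusted p = 0.0369). By litter it was 1.18, 1.31 and 0.77. The suffix x marks a probe set with probes that can also match other transcripts. The second probe set, 1438133_a_at, carries no such mark and read 209, 225 and 460 in controls and 520, 640 and 766 in knockouts. It also passed, with a log2 change of 1.14 ± 0.15 (adjusted p = 0.0452). The other Ccn1 probe sets were dimmer, at 36.7 to 102 on all arrays, with overlapping groups and log2 changes of 0.56 ± 0.14 (adjusted p = 0.153) and 0.47 ± 0.22 (adjusted p = 0.386). Ccn1 did not pass with the intensities as deposited (0.91, adjusted p = 0.336), with litter A (adjusted p = 0.242), litter B (0.407) or the litter block (0.159) left out, and over all alternatives its adjusted p ran from 0.000946 to 0.407. It also did not pass with the mean of its probe sets (0.81, adjusted p = 0.0951), a pseudocount of 64 (0.0524) or no intensity trend (0.114).

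Ccn2 encodes a matricellular protein of the same family that is linked to wound healing and fibrosis. It read 1473, 1360 and 2347 in controls and 1505, 1759 and 1853 in knockouts. The groups overlapped, and the control of litter C was the highest of all 6 arrays. Its log2 change was 0.02 ± 0.13 (adjusted p = 0.967), with a 95% interval from -0.30 to 0.34, and the litters gave 0.03, 0.37 and -0.34. Ccn2 was measured by a single probe set, and its change was negative as deposited (-0.13) and when the arrays were brought to equal medians (-0.07). In each litter the change of Ccn1 was above that of Ccn2, by 1.15, 0.94 and 1.11 (mean 1.07 ± 0.11 SD, n = 3 litters; exact permutation two-sided p = 0.25, the smallest that 3 litters allow). This contrast was among 3 between related members, chosen after the values were seen, with p adjusted to 0.375 over the 3.

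Ankrd1, a muscle ankyrin repeat protein and a common reporter of YAP activity, was near the bottom of the range. Its brighter probe set read 4.52, 7.77 and 9.38 in controls and 8.65, 5.82 and 5.03 in knockouts, and the other 0.367 to 1.88 on all arrays. Both lay under the median probe set mean of 17.4, and their groups overlapped. The log2 change was -0.04 on either (adjusted p = 0.929 and 0.859). No detection calls were used here, so these values do not say whether Ankrd1 RNA was present.

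The angiomotin-like genes encode scaffold proteins that hold YAP at cell junctions and the cytoskeleton and promote its phosphorylation. Amotl2 was measured by 1 probe set and read 820, 863 and 757 in controls and 1235, 1200 and 1189 in knockouts. The groups did not overlap and the knockouts lay within a narrow range. The log2 change of 0.56 ± 0.08 missed the threshold (adjusted p = 0.0525). By litter it was 0.58, 0.47 and 0.64. Amotl2 passed without the litter block (adjusted p = 0.0415), at a pseudocount of 1 (0.0317), without the dimmest probe sets (0.0161) and without litter C (0.0126). It missed the threshold as deposited (log2 change 0.39, adjusted p = 0.673), with equal array medians (0.45, 0.379) and without an intensity trend (adjusted p = 0.141). Dropping litter A gave an adjusted p of 0.350, and dropping litter B gave 0.462. The deposited intensities of litter C were close, at 1010.3 in the control and 1018.5 in the knockout.

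Amotl1 had 3 probe sets, and on each of them every knockout array lay above every control array. The brightest read 492, 516 and 504 in controls and 735, 668 and 588 in knockouts, a log2 change of 0.38 ± 0.10 (adjusted p = 0.155). The others had log2 changes of 0.54 ± 0.14 and 0.52 ± 0.15 (adjusted p = 0.163 and 0.203). In all 3 the change was smallest in litter C, at 0.22 on the brightest against 0.56 and 0.36 in litters A and B. The change of Amotl2 exceeded that of Amotl1 by 0.02, 0.11 and 0.42 in the 3 litters (exact permutation two-sided p = 0.25; adjusted p = 0.375).

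Lats2, a kinase that phosphorylates YAP and TAZ, had 6 probe sets that disagreed. The brightest, 1439441_x_at, read 258, 214 and 192 in controls and 383, 344 and 333 in knockouts. These groups did not overlap, and the log2 change of 0.65 ± 0.09 missed the threshold (adjusted p = 0.0582). The next, 1437101_at, read 150, 144 and 125 in controls and 208, 166 and 177.5 in knockouts (0.36 ± 0.11, adjusted p = 0.219). The other 4 were at 5.33 to 78.0 on all arrays, with overlapping groups and log2 changes from -0.10 to 0.17. With the mean of all 6 probe sets the change was 0.19 (adjusted p = 0.375).

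Ajuba encodes a LIM protein that binds LATS kinases and restrains them at adherens junctions. It read 1204, 1410 and 1293 in controls and 1382, 1457 and 1278 in knockouts, with overlapping groups. The log2 change was 0.08 ± 0.08 (adjusted p = 0.722; 95% interval -0.12 to 0.27), and it was negative as deposited (-0.09) and with equal array medians (-0.03).

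Neither coactivator passed the test. Yap1 read 529.5, 480 and 575 in controls and 458, 473 and 517 in knockouts on its brighter probe set. The groups overlapped, and the log2 change was -0.12 ± 0.09 (adjusted p = 0.570; 95% interval -0.33 to 0.08). The second Yap1 probe set gave -0.09 ± 0.13. Wwtr1, which encodes TAZ, read 426, 419 and 454 in controls and 413, 358 and 358 in knockouts on the brightest of 3 probe sets. Here all knockout arrays lay under all control arrays, as in 10.8% of all genes, but the log2 change of -0.20 ± 0.09 did not pass (adjusted p = 0.408). Its other probe sets had overlapping groups and log2 changes of 0.05 and 0.00. The changes of Yap1 and Wwtr1 differed by -0.16, 0.20 and 0.18 by litter, with no shared sign (exact permutation two-sided p = 0.5; adjusted p = 0.5).

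Tead1, a DNA-binding partner of YAP and TAZ, was alike on arrays of the same genotype. Its brighter probe set read 213, 210 and 196 in controls and 310, 305 and 307 in knockouts. The groups were well apart relative to the spread within them, and the log2 changes by litter were 0.51, 0.50 and 0.61. The log2 change of 0.54 ± 0.09 still missed the threshold (adjusted p = 0.0772). The second probe set was close to the median of the array, at 14.3 to 29.6, with a log2 change of 0.22 ± 0.18 (adjusted p = 0.628). Without litter C, 5 of the 10 genes passed, all higher: Ccn1, Amotl1, Amotl2, Lats2 and Tead1. Calls were more frequent throughout without that litter, with 4.07% of all genes higher and 4.34% lower. Without litter A or litter B 0 of the 10 passed, where limma called 3 and 0 of all 45037 probe sets. On the intensities as deposited, where the control of litter C was the brightest array, only Amotl2 and Lats2 (2 of the 10) kept all knockout arrays above all control arrays, as did 3.12% of all genes. On that scale the log2 changes of Amotl1 and Tead1 were 0.20 and 0.34, and those of Yap1 and Wwtr1 were -0.31 and -0.38.

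**Figure D2:**
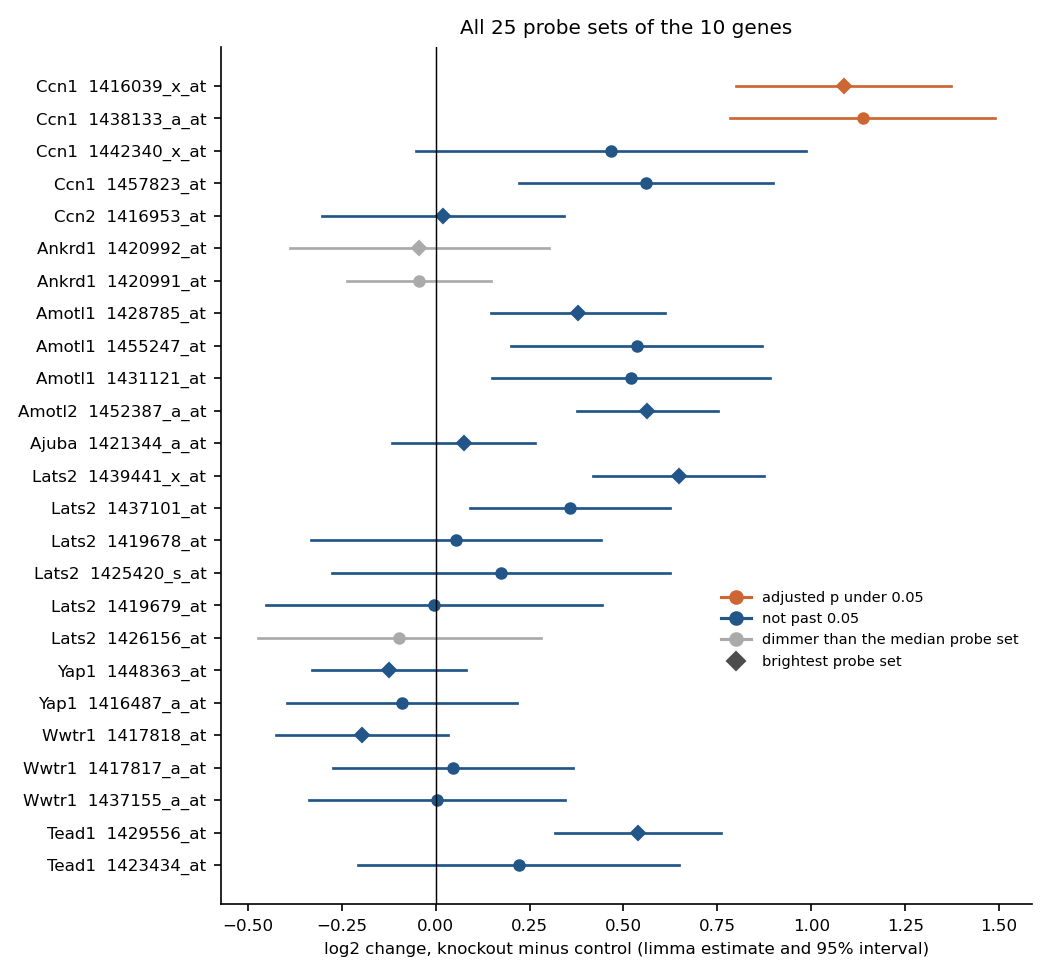
Log2 change (knockout minus control, limma estimate as a point and 95% interval as a line) of all 25 probe sets, with orange for adjusted p under 0.05, grey for probe sets dimmer than the median and diamonds for the brightest probe set of a gene. The 2 orange probe sets are those of Ccn1 at 1.09 and 1.14, the 3 of Amotl1 lie between 0.38 and 0.54, and the 6 of Lats2 spread from -0.10 to 0.65.

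The rest of the pathway was read from lists of other genes. Among other YAP and TAZ targets 2 of 18 measured genes rose and 0 fell, against 0.214% and 0.401% of all genes. Their median log2 change was 0.18. At an unadjusted limma p under 0.05, 7 were higher and 4 lower, against 8.66% and 9.45% of all genes. Every knockout array lay above every control array in 5 of the 18 and below in 1, against 9.81% and 10.8%. F3, the tissue factor that starts blood coagulation, read 610, 541 and 909 in controls and 2004, 1904 and 1666 in knockouts. The groups did not overlap, and the log2 change was 1.45 ± 0.18 (2.73-fold, adjusted p = 0.0439), although in litter C it was 0.86 against 1.69 and 1.79. Thbs1, the matricellular glycoprotein thrombospondin, read 744, 598 and 505 in controls and 1292, 1202 and 1013 in knockouts. Its groups did not overlap, and its log2 change was 0.92 ± 0.08 (1.89-fold, adjusted p = 0.0249), at 0.78, 0.99 and 0.98 by litter. The receptor kinase Axl (0.66 ± 0.10, adjusted p = 0.0638) and Tgfb1i1, a LIM protein of focal adhesions (-0.78 ± 0.12, adjusted p = 0.0645), did not pass. The groups of Tgfb1i1 overlapped. Tgfb1i1 passed with equal array medians (adjusted p = 0.0271) but not as deposited (0.184) or without the litter block (0.26). The 18 divided into 10 positive and 8 negative changes, and over all genes 50.1% were positive. As deposited F3 and Thbs1 did not pass (adjusted p = 0.228 and 0.365), nor without litter A or litter B, and Thbs1 missed without the litter block (0.0596) or with equal array medians (0.0532).

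Among Hippo kinases and upstream regulators limma called 0 of 21 measured genes, and the median log2 change was 0.04. At an unadjusted limma p under 0.05, 4 were higher and 2 lower, against 8.66% and 9.45% of all genes. The smallest p belonged to Wwc1, the scaffold protein KIBRA that promotes LATS activation, at 240, 292 and 282 in controls and 379, 402 and 450 in knockouts (0.57 ± 0.09, adjusted p = 0.0724). The LIM protein Limd1, a relative of Ajuba, had a log2 change of -0.44 ± 0.12 (adjusted p = 0.164), Fjx1 0.74 ± 0.20 (0.178) and the phosphatase Ptpn14, which binds YAP, -0.42 ± 0.12 (0.179). Fjx1, Ptpn14 and Nuak2 of this list are also known YAP targets. Lats1, the paralog of Lats2, read 453 to 498 on all 6 arrays.

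Among TEAD factors and their cofactors limma called 0 of 7, with 2 higher and 0 lower at an unadjusted p under 0.05. Over all genes 8.66% were higher and 9.45% lower at that p. Vgll3, a cofactor that competes with YAP for TEAD factors, came nearest, at 673, 713 and 923 in controls and 1300.4, 1282 and 1315 in knockouts. Its groups did not overlap and its log2 change was 0.76 ± 0.10 (adjusted p = 0.0514). Vgll2 and Tead4 had log2 changes of 0.78 ± 0.30 (adjusted p = 0.306) and 0.34 ± 0.16 (0.391), and Vgll4, a repressor of TEAD activity, -0.38 ± 0.20 (0.446). Vgll2 was dim, at 2.15 to 35.9 on all arrays, with overlapping groups and changes of 0.91, -0.07 and 1.48 by litter. In the rest of the CCN family limma called 0 of 4, with 1 at an unadjusted p under 0.05. That gene, Ccn4, read 52.9, 67.4 and 76.8 in controls and 120, 113 and 128 in knockouts (0.75 ± 0.13, adjusted p = 0.0820). Ccn3, Ccn5 and Ccn6 were at 1.85 to 17.8 on all arrays, around or under the median probe set, with log2 changes from -0.14 to 0.21.

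Targets of serum response factor and the actin cytoskeleton, several of which share induction by cell tension with YAP targets, moved in both directions. Of 12, 1 rose and 1 fell, against 0.214% and 0.401% of all genes, and the median was -0.01. At an unadjusted limma p under 0.05, 3 were higher and 3 lower, against 8.66% and 9.45% of all genes. Actg2, a smooth muscle actin, read 38.1, 31.4 and 44.4 in controls and 181, 130 and 107 in knockouts (1.50 ± 0.18, adjusted p = 0.0429). Myl9, a regulatory myosin light chain, fell from 1262, 1270 and 784 to 491, 450 and 420 (-1.22 ± 0.13, adjusted p = 0.0340). Neither passed as deposited (adjusted p = 0.147 and 0.0719) or without litter A or litter B. Cnn1 (-0.75 ± 0.14, adjusted p = 0.0931) and Srf itself (-0.37 ± 0.10, adjusted p = 0.167) did not pass, but Cnn1, at 22.1 or below on every array, passed with equal array medians (adjusted p = 0.0288).

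**Figure D3:**
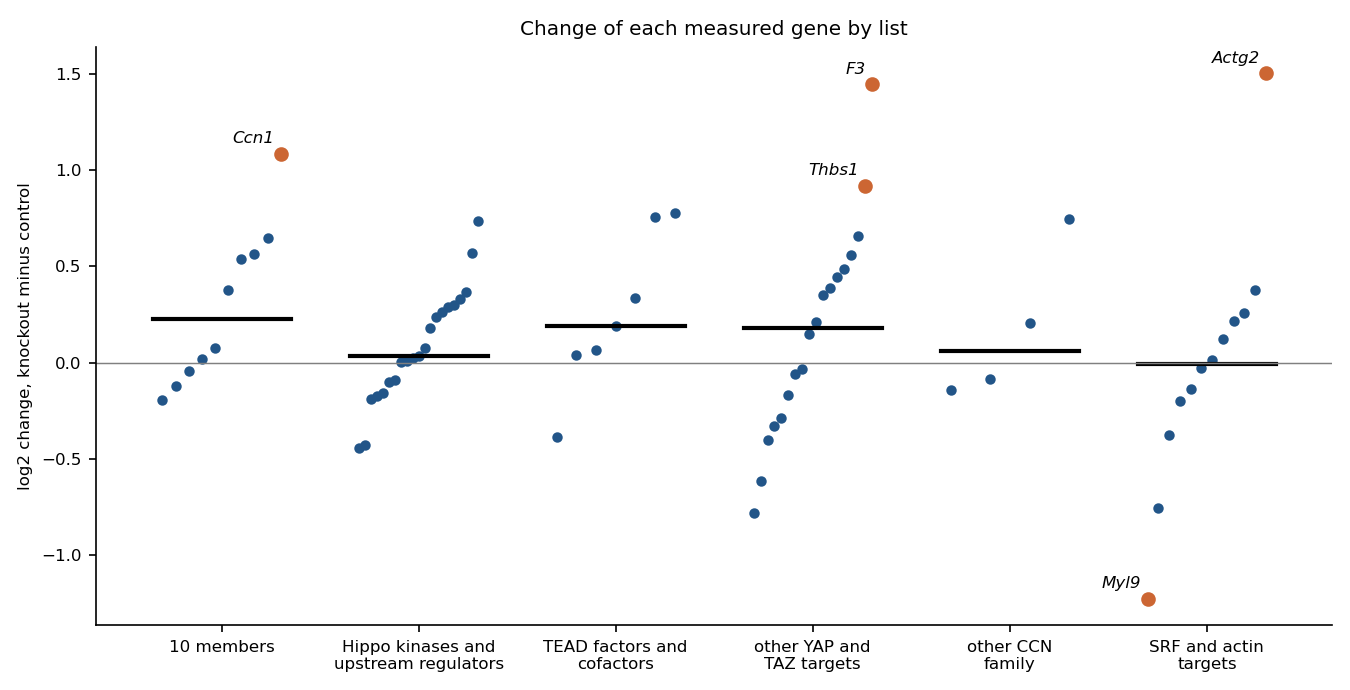
Log2 change (knockout minus control) of every measured gene of the 10 members and the lists of other pathway genes, with named orange points for adjusted p under 0.05 and a black bar at the median of each list. The called genes are Ccn1, F3, Thbs1 and Actg2 above 0 and Myl9 below it, and all other genes lie between -0.78 (Tgfb1i1) and 0.78 (Vgll2).

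The genes most like Ccn1 in pattern were sought among 6206 genes with a mean level of at least 100, by Pearson correlation of log2 levels over the 6 arrays, which share genotype and litter differences. The highest were Snhg6 (r = 0.998), Gprc5a (0.996), Nifk (0.995), Wdr43 (0.995) and Snhg3 (0.995). Gprc5a, an orphan G protein-coupled receptor, read 79.5, 64.1 and 168 in controls and 232, 247 and 356 in knockouts, high in litter C as Ccn1 was. For Ccn2 they were C1galt1 (0.999), Snord104 (0.992), Nup62 (0.992), Ralb (0.990) and Syce2 (0.984). Each of these read highest on the control of litter C, as Ccn2 did, and the 2 sets of 5 genes did not overlap. Genes picked for likeness to a member over these arrays share its pattern by selection, so these are descriptions only.

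Ccn1 and Ccn2 stood apart from the other members on the control array of litter C. On the log2 scale the control of litter C lay above the mean of the other controls by 0.99 for Ccn1 and 0.72 for Ccn2, against -0.27 to 0.20 for the other 8 members and a median of -0.02 over all genes. Among knockouts the same contrast was 0.52 and 0.19, against -0.25 to 0.15 for the other 8 members, so Ccn2 was close to Yap1 (0.15) there. Most fibroblast markers were also high on the control array of litter C: 9 of 10 lay above the mean of the other controls. The median was 0.99 and the range from -0.92 (Postn) to 1.52 (Col1a1). Of the 9, Dcn (24.6 against 33.0) and Fbln1 (89.5 against 103.6) still read below the control of litter B. Their summed level was 342, 344 and 671 in controls and 449, 544 and 674 in knockouts. Limma called 0 of the 10, with 4 higher and 2 lower at an unadjusted p under 0.05, against 8.66% and 9.45% of all genes. Col1a1, a collagen chain of fibroblasts, read 43.6, 30.4 and 135 in controls and 117, 127 and 212 in knockouts, highest in litter C in both groups as Ccn1 was, while the fibroblast proteoglycan Lum was at 14.0 or below on every array. Of the 10 changes, 6 were positive and 4 negative. Postn (log2 change -1.30, adjusted p = 0.0803) and Fbln1 (-0.52, adjusted p = 0.160) had every knockout array below every control array.

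**Figure D4:**
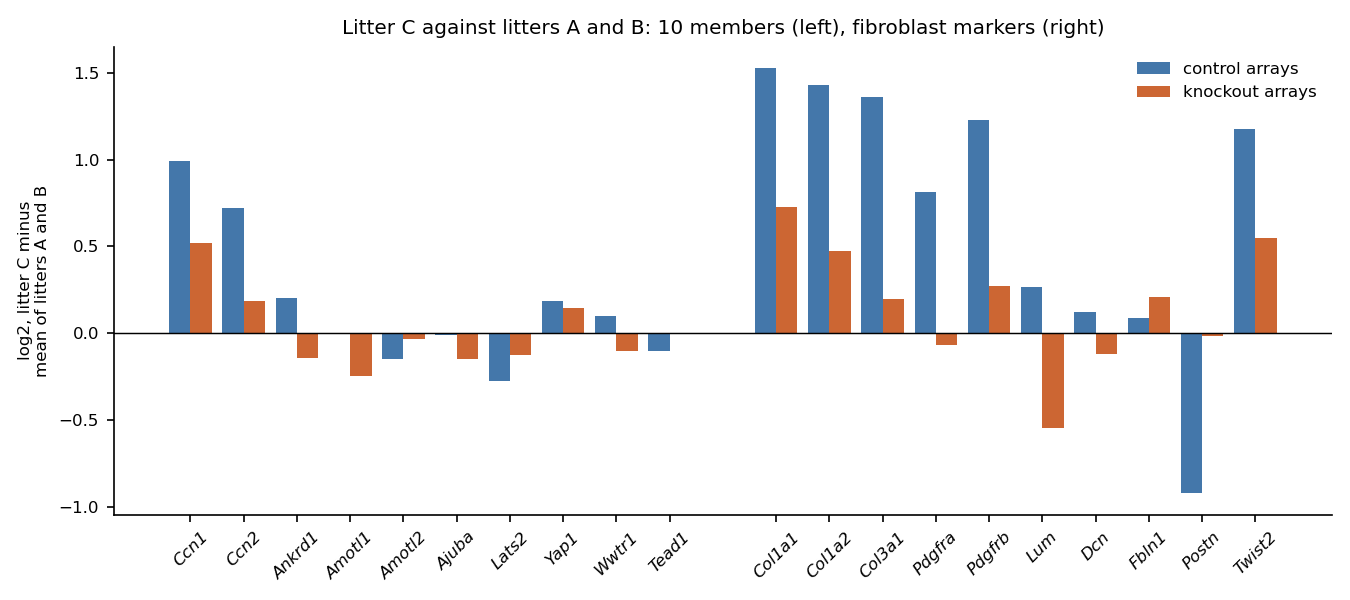
Log2 level in litter C minus the mean of litters A and B, within control arrays (blue) and knockout arrays (orange), for the 10 members on the left and the 10 fibroblast markers on the right. Ccn1 (0.99) and Ccn2 (0.72) are the members with high blue bars, beside 6 fibroblast markers between 0.81 and 1.52.

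Melanocyte markers differed between the genotypes as well. All 6 were positive, and Tyrp1 (0.69 ± 0.08, adjusted p = 0.0380) and Mlana (1.11 ± 0.14, adjusted p = 0.0429) rose. Neither passed as deposited (adjusted p = 0.539 and 0.209) or without litter A or litter B, and Tyrp1 did not pass with equal array medians (0.185). Their summed level was 4521 to 4674 in controls and 6235 to 6890 in knockouts. Immune and muscle markers summed to 55.5 to 139 on each array, with 0 of 6 called in each list. At an unadjusted limma p under 0.05, 1 and 3 of them were higher, against 8.66% of all genes. The part of other cell types in the changes of Ccn1, F3, Thbs1 and the other members was not tested, and in RNA from pooled cells fewer cells of a type and less RNA per cell cannot be told apart.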

How the data were processed

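Total RNA of primary keratinocytes (Trizol, biotin labelling by in vitro transcription, per the labels) was measured on 6 Affymetrix arrays. The deposited table holds linear intensity values per probe set, and background correction, probe summary and scaling are not given in the sources used here. The 64 control probe sets were left out and 45037 were quantile-normalized, since the arrays were not at a common level, and tested as log2(intensity + 16) with limma 3.58.1 in R 4.3.3 (lmFit, eBayes with intensity trend, litter as a block). P-values are two-sided. The labels name the litter, which pairs the arrays; residuals of same-litter arrays about the group means correlated with r = 0.175, 0.0474 and 0.207. The fit was tested on simulated data.

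Symbols came from the platform annotation of 2016: 34945 probe sets had 1 gene, 932 several and 9160 were not listed. The probe set with the highest mean over all 6 arrays stood for a gene. The members, lists and rules were chosen with earlier results of these data known. Named were all 10 members, Gpx4, the 4 genes of smallest p in each pathway list and the 5 of most like pattern. Nuak2, Lats1 and the markers named were added after their values were seen. The labels call the arrays of a group biological replicates, from separate litters.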

Additional observations from a re-analysis of the deposited data

How the results depend on the processing

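The count of called members was 1 (Ccn1) and also 1 when arrays were shifted to equal medians (Ccn1) and with no replicate block (Amotl2). It was 0 with the intensities as deposited, with a pseudocount of 64, with eBayes without a trend and with the mean of all probe sets of a gene, and 4 (Ccn1, Amotl2, Lats2 and Tead1, all higher) with a pseudocount of 1 or without the 40% dimmest probe sets. Leaving out a litter gave 0 to 5. Called genes of the pathway lists were 4 (3 higher, 1 lower), against 5 with equal medians (2 higher, 3 lower: F3, Actg2, Tgfb1i1, Cnn1 and Myl9), 3 with no replicate block (F3, Actg2 and Myl9), 0 as deposited, without a trend and with averaged probe sets, 1 at a pseudocount of 64 and 9 with a pseudocount of 1 or without the dimmest, and 0 to 16 with a litter left out. All probe sets called were 189 (71 higher, 118 lower), against 35 as deposited (3 higher, 32 lower), 710 with equal medians (198 higher, 512 lower), 601 at a pseudocount of 1 and 59 at 64, 1130 without the dimmest and 6 without a trend, and 0 to 2666 with a litter left out (3695 at an unadjusted p under 0.05 where limma called 0). Fewer arrays are tested with a litter left out and fewer probe sets without the dimmest. With litter A, B or C left out, which leaves the same number of arrays, 3, 0 and 2666 probe sets were called. The cause of the differences between settings was not tested. Of 55 genes named in the text and run under these alternatives 11 were called, and 0 of the 11 changed sign. Of the 55, 4 changed their call without the replicate block (Ccn1, Thbs1, Gprc5a and Amotl2). Since the arrays are paired, leaving out 1 array leaves out its litter.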
